A study of Mus musculus with 2 samples.

Results

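Major urinary proteins (MUPs) are small secreted carriers of the lipocalin family that mouse hepatocytes release into the blood and the kidney passes into the urine. They hold volatile pheromones in a pocket and release them slowly from urine marks, and Mup20, also called darcin, is itself a male pheromone. In the liver most Mup genes are known to depend on pulses of growth hormone acting through STAT5, on androgen, thyroid and glucocorticoid hormones and on the nutritional state, and males make more MUP than females. The 10 members described here, Mup1, Mup2, Mup3, Mup7, Mup11, Mup16, Mup17, Mup18, Mup20 and Mup21, were taken by symbol from the 55421 genes listed in both count tables. Their Ensembl identifiers were paired with symbols through GENCODE M21 on GRCm38, where 49 rows carry a Mup symbol.

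Liver RNA was sequenced in 2 libraries. One came from mice with a conditional knockout of Rcrin and the other from Rcrin flox mice, which the labels call WT. Both carry a time of 8 weeks in their labels. Nothing used here states which promoter or cells the deletion used, whether the animals were male or female, or how many contributed to a library. Neither genotype had a second library, so no variation among animals could be measured, no test was made, and the differences are those of a single pair of libraries. The knockout library held 63587567 counts and the WT library 65121596, with a count in 17333 genes of the knockout library and 17487 of the WT library. The level of Rcrin itself, which would check the labels, was not analysed here.

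Markers of liver were high in both libraries. The 5 hepatocyte markers (Alb, Apoa1, Ttr, Cyp2e1 and Cps1) together had 125103 CPM, counts scaled to the size of the library, in the knockout library and 78274 in the WT library, and all 5 kidney markers were listed at 0 in both. Of the 4 salivary and lacrimal gland markers found, glands in which some other Mup genes are known to be active, Prol1, Smr3a and Scgb2b24 were listed at 0 in both libraries. The fourth, amylase Amy1, which the liver also makes, had 6523 and 3906 counts in the knockout and WT libraries. Less RNA per cell and fewer cells of a type cannot be told apart in such bulk samples.

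Members of the family are close copies of each other, which bears on every value below. All 10 lie on the minus strand of chromosome 4, in a cluster of 48 rows with a Mup symbol at chr4:59956804-62150863 on GRCm38, and they have 6 to 8 exons. The coding sequences of Mup1, Mup2, Mup7, Mup11, Mup16, Mup17 and Mup18 were 98.4% to 99.8% identical to each other, and Mup11 and Mup18 differed by 1 base in 546. Mup3, Mup20 and Mup21 stood apart, with 82.7% to 91.4% identity to those 7 and 87.6% to 95% among themselves. The stretch of 60 coding bases shown here, taken from the GENCODE transcripts, has 13 differing positions across all 10 members. No other stretch of that length had more, among those that start in frame and have no gap when the members are aligned to Mup11. It crosses a splice junction, and it runs over chr4:60069846-60070243 in Mup7, chr4:60139332-60139729 in Mup2, chr4:62053593-62053989 in Mup20, chr4:62086913-62087162 in Mup3 and chr4:62150308-62150692 in Mup21, on the minus strand of GRCm38. Capitals mark bases that differ from the commonest base of the 10. Mup1, Mup11, Mup16, Mup17 and Mup18 have the same 60 bases as Mup7, so a read inside this stretch could not be placed among these 6 genes.
Mup7: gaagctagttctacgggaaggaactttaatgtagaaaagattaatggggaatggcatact
Mup2: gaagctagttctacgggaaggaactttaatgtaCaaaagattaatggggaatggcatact
Mup20: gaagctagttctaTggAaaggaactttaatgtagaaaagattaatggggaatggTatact
Mup3: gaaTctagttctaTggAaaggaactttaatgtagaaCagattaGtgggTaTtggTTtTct
Mup21: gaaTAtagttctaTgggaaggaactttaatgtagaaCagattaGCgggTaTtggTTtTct

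How much of each transcript can be told apart was counted in windows. Of the 100-base windows of the principal transcript, 97.1% in Mup3, 95.5% in Mup21, 61.2% in Mup20 and 40.6% in Mup17 were found in no transcript of another gene. The share was 19.9% in Mup16, 16.5% in Mup11, 12.9% in Mup7 and in Mup18, 12.8% in Mup1 and 2.66% in Mup2. With 50-base windows, 0 of 878 were unique to Mup2 and 789 of 935 to Mup3. Mup20 shared 422 of its 879 windows of 50 bases with the pseudogene Mup-ps19, and 27 with each of its next closest genes. Neither the read length nor the handling of reads that fit several genes is stated in the labels. The split of counts among the 7 near-identical members is therefore uncertain, and their sum is given beside the single genes.

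The 10 members together had 823646 counts in the knockout library and 729749 in the WT library, or 1.3% of all counts in the knockout library and 1.12% in the WT library. The log2 ratio of the sum, knockout over WT, was 0.26, a 1.2-fold difference. Its exact 95% interval, which covers counting error only, was narrower than the rounding. The 7 near-identical members had 386201 counts in the knockout library and 422483 in the WT library, a log2 ratio of -0.04. Mup3, Mup20 and Mup21 had 437445 counts in the knockout library and 307266 in the WT library, a log2 ratio of 0.60 (interval 0.59 to 0.60). Within the 10 members, the excess in the sum rested on Mup3. The members without Mup3 had 461889 counts in the knockout library and 518536 in the WT library, a log2 ratio of -0.08. This holds for the 10 members only, since the 12 other protein-coding Mup genes, described below, had a log2 ratio of 0.35.

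GC content moved with the family value. The members had a median transcript GC content of 42%, against 50.8% over all genes compared. Genes with as little GC in their transcripts as the members (39.6% to 42.5%) had a median log2 ratio of 0.40 over 778 genes, against -0.01 over all 12064 genes compared, which had a mean of at least 50 counts. Once a smooth trend of the log2 ratio on GC content was subtracted, the log2 ratio of the sum was -0.14, the opposite direction. The direction of the family sum thus changed both with this subtraction and without Mup3.

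**Figure D1:**
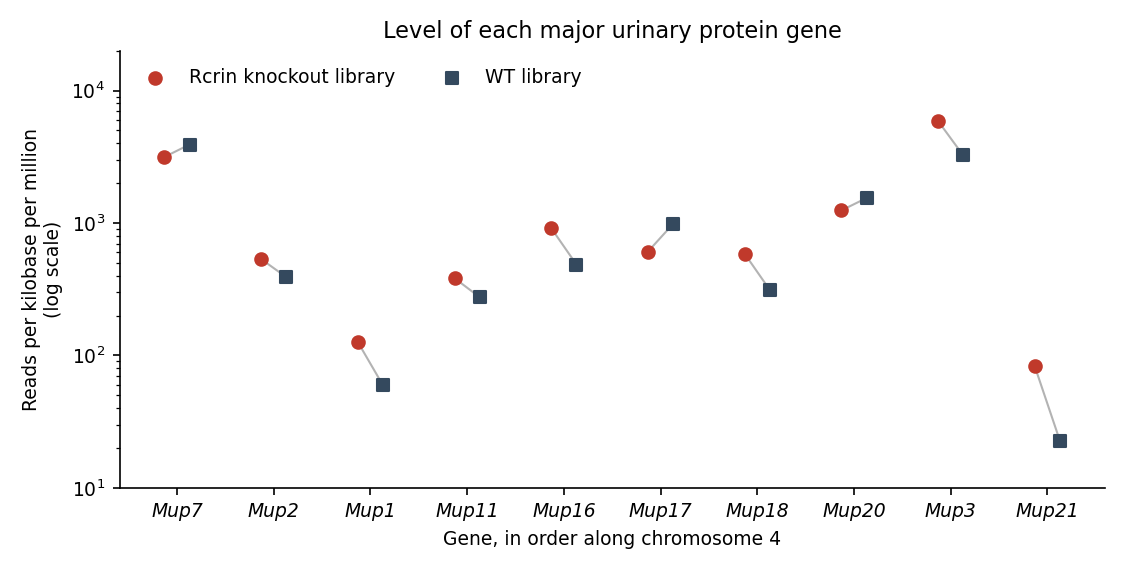
Level of the 10 Mup genes in RPKM, counts per length of the longest transcript and scaled library size (log axis), in genomic order, with 1 point per library (circle, Rcrin knockout; square, WT) joined by a line. Mup3 and Mup7 stand highest in both libraries and Mup21 lowest, and the knockout point is the higher one in 7 of the 10 genes.

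Levels between genes were compared as RPKM, in which counts are divided by the length of the longest annotated transcript and by the scaled library size. They spanned from 82.5 to 5885 RPKM in the knockout library and from 22.6 to 3917 in the WT library. Mup3 was the highest member in the knockout library with 5885 RPKM, where it was rank 15 among all genes, and the second in the WT library with 3238. Mup7 led in the WT library with 3917 RPKM (rank 21 of all genes) and followed Mup3 in the knockout library with 3155. Mup20 was the third member in both libraries, at 1245 and 1545 RPKM in the knockout and WT libraries. Next in the knockout library came Mup16 (913 RPKM), Mup17 (609), Mup18 (585), Mup2 (534) and Mup11 (383). In the WT library the order was Mup17 (986 RPKM), Mup16 (486), Mup2 (390), Mup18 (312) and Mup11 (275). Mup1, with 126 and 59.4 RPKM in the knockout and WT libraries, and Mup21, with 82.5 and 22.6, were lowest in both. No spread between mice stands behind this order, so neighbours such as Mup17 and Mup18 in the knockout library cannot be called different. Across the 10 members the counts of the libraries had a Spearman rho of 0.96, a description over genes that share reads.

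Mup3, whose transcript is nearly all its own, had 361757 counts in the knockout library and 211213 in the WT library. The gene (ENSMUSG00000066154) lies at chr4:62083476-62087342. It was 1.82-fold higher in the knockout library, a log2 ratio of 0.86 (interval 0.85 to 0.87), which does not reach the limit of 2-fold used here to call a gene different. Subtracting the GC trend left a log2 ratio of 0.43.

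Mup21 (ENSMUSG00000066153, chr4:62147932-62150863), the last Mup gene of the cluster and the closest relative of Mup3 at 95% coding identity, showed the widest gap of the 10. It had 3490 counts in the knockout library and 1012 in the WT library, 3.66-fold more (log2 ratio 1.87, interval 1.77 to 1.97). After the GC trend was subtracted it stood at 1.40, still past 2-fold. The pair had 112 windows of 50 bases in common, 12% of those of Mup3 and 17.8% of those of Mup21. Both were higher in the knockout library, by unequal amounts.

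Mup20 (ENSMUSG00000078672, chr4:62050234-62054158), the gene of darcin, ran the other way. It had 72198 counts in the knockout library and 95041 in the WT library, 1.24-fold fewer (log2 ratio -0.31, interval -0.33 to -0.30). The pseudogene Mup-ps19, with which it shares windows, had 20207 counts in the knockout library and 23052 in the WT library (log2 ratio -0.10). Together they had a log2 ratio of -0.27. Mup20 stood at -0.75 after subtraction of the GC trend, in the same direction.

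Among the 7 near-identical members the differences went both ways. Mup7 (ENSMUSG00000073842, chr4:60066469-60070475), which took most of their counts, had 203591 in the knockout library and 268208 in the WT library (log2 ratio -0.31, interval -0.32 to -0.30). Mup17 (ENSMUSG00000096688, chr4:61591929-61595871) had 35278 counts in the knockout library and 60585 in the WT library, 1.62-fold fewer. These were the only members of the 7 that were lower in the knockout library. Mup17 has the largest share of unique windows among the 7, and its log2 ratio of -0.69 became -1.07, past 2-fold, with the GC trend subtracted.

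The other 5 near-identical members were higher in the knockout library. Mup1 (ENSMUSG00000078683, chr4:60498012-60501960) had 7311 counts there and 3648 in the WT library, 2.13-fold more (log2 ratio 1.09, interval 1.03 to 1.15). It is the least expressed of the 7, and with the GC trend subtracted it came back within 2-fold, at 0.71. Mup16 (ENSMUSG00000078675, chr4:61515592-61519531) had 52868 counts in the knockout library and 29873 in the WT library, a log2 ratio of 0.91.

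Mup18 (ENSMUSG00000078674, chr4:61670177-61674136) had 33973 counts in the knockout library against 19240 in the WT library, also 0.91 on the log2 scale. For Mup11 (ENSMUSG00000073834, chr4:60658466-60662411), 1 coding base away from Mup18, the counts were 22237 in the knockout library and 16980 in the WT library, a log2 ratio of 0.47. Mup2 (ENSMUSG00000078688, chr4:60135932-60154289) had 30943 counts in the knockout library and 23949 in the WT library, 1.37-fold more. After subtraction of the GC trend, Mup2 (0.07) and Mup11 (0.11) stood close to 0, and Mup16 and Mup18 both stood at 0.52.

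**Figure D2:**
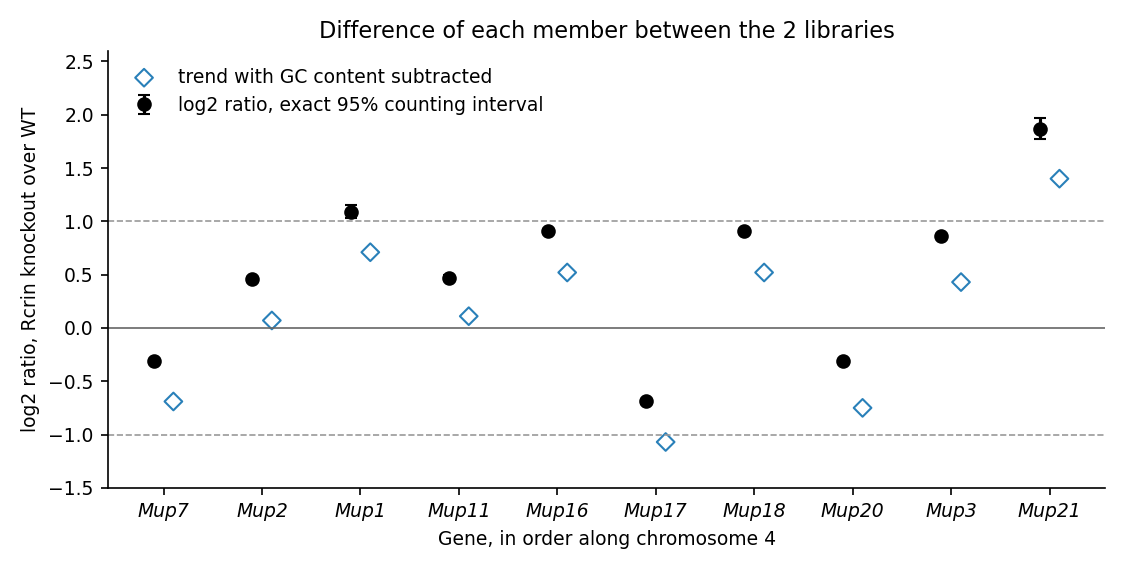
Log2 ratio of each member, Rcrin knockout over WT, in genomic order (filled circles, bars show the exact 95% interval for counting error), beside the value with the trend on GC content subtracted (open diamonds). Dashed lines mark 2-fold, which Mup21 at 1.87 and Mup1 at 1.09 pass; after the subtraction Mup21 at 1.40 and Mup17 at -1.07 pass it.

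Counted over the family, 2 of the 10 members were past 2-fold and higher in the knockout library (Mup1 and Mup21) and 0 were past it and lower. All 10 passed the filter on low counts. Over all genes compared, 8.45% were past 2-fold and higher and 8.61% past it and lower. For genes that average 1000 counts or more, as all 10 members do, the shares were 6.11% and 6.2%. In the GC range of the members they were 14.4% and 3.86%, or 18.3% in either direction, so a count of 2 of 10 is near that background. The members had a median log2 ratio of 0.67, with 7 above 0 and 3 below. The GC-subtracted median was 0.27, with 1 member past 2-fold in each direction, against 7.51% of all genes past it and higher and 8.18% past it and lower.

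The makeup of the family was also compared, as the share of the members' counts that each gene took. These shares do not depend on how the libraries were scaled. Mup3 made up 43.9% of the members' counts in the knockout library (exact 95% interval 43.8% to 44%) and 28.9% in the WT library (28.8% to 29%). Mup7 made up 24.7% in the knockout library and 36.8% in the WT library. Mup20 took 8.77% in the knockout library and 13% in the WT library, and Mup17 took 4.28% in the knockout library and 8.3% in the WT library. Mup16 took 6.42% in the knockout library and 4.09% in the WT library, and Mup18 took 4.12% in the knockout library and 2.64% in the WT library. Mup21 stayed a small part, at 0.424% in the knockout library and 0.139% in the WT library. In all, 20.3 percentage points of the members' counts lay with different members in the 2 libraries. This was mostly Mup3 in place of Mup7, Mup20 and Mup17. The 10 members held 63.8% of all Mup counts in the knockout library and 64.8% in the WT library, and Mup22, described below, is not among them. The shares also depend on how reads shared between near-identical genes were assigned, which was not tested.

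**Figure D3:**
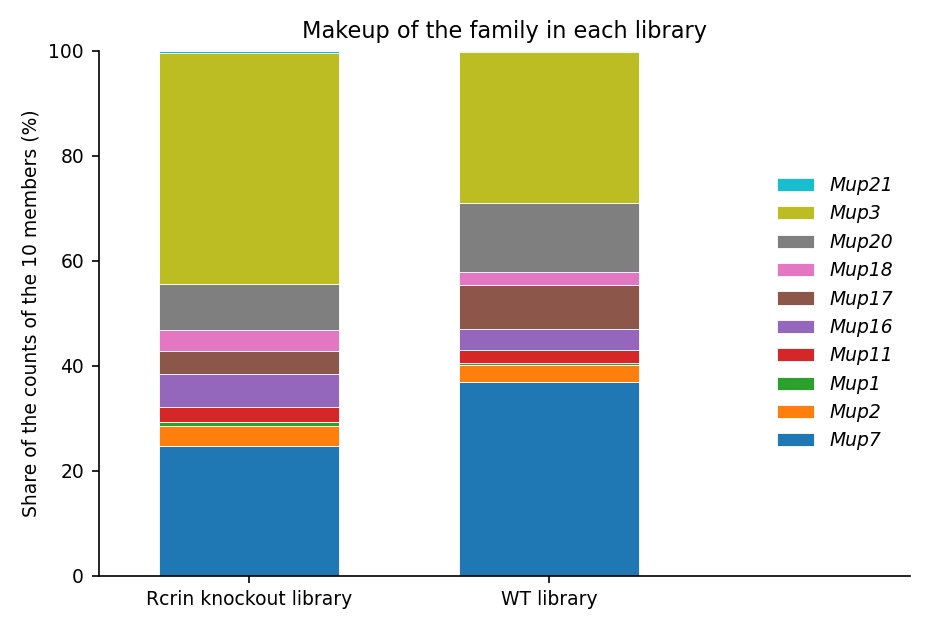
Share of the counts of the 10 members taken by each gene, in percent, with 1 stacked bar per library (left, Rcrin knockout; right, WT). Mup3 fills 43.9% of the knockout bar and 28.9% of the WT bar, and Mup7 fills 24.7% of the knockout bar and 36.8% of the WT bar.

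The share of a transcript that is unique did not line up with a direction. The members with at least 40.6% unique windows of 100 bases were Mup17 and Mup20, lower in the knockout library, and Mup3 and Mup21, higher. Those with fewer unique windows held 1 lower gene, Mup7, and 5 higher ones. Mup11 and Mup18, which differ by 1 coding base, stood 0.44 apart on the log2 scale, and Mup1 and Mup17, which differ by 7, stood 1.78 apart. Both pairs share most of their sequence, and the part of shared reads in these gaps was not tested.

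**Figure D4:**
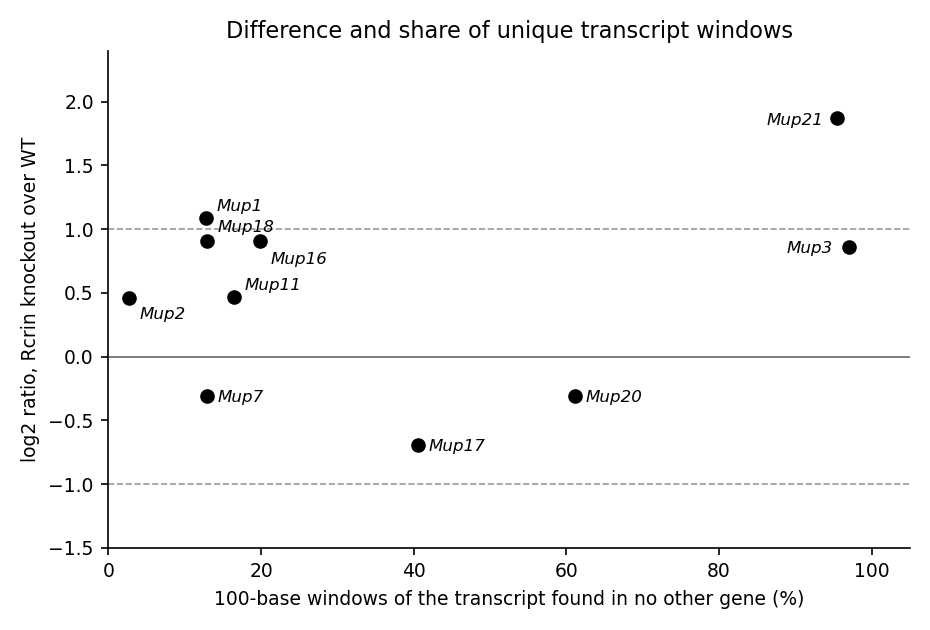
Log2 ratio of each member, Rcrin knockout over WT, against the share of 100-base windows of its principal transcript found in no other gene, in percent. Genes above and below 0 occur both at low shares (Mup1 and Mup7, both near 13%) and at high ones (Mup3 at 97.1%, Mup20 at 61.2%).

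The remaining Mup genes differed by less than 2-fold wherever they could be compared. The 12 other protein-coding Mup genes had 446752 counts in the knockout library and 372502 in the WT library, a log2 ratio of 0.35. Of them, 10 passed the filter and 0 were past 2-fold, with 7 above 0, 3 below and a median of 0.35. Less the GC trend, their median was -0.05, with 5 above 0 and 5 below. Before that subtraction they ran from Mup6 at -0.22 to Mup10 at 0.88. Mup4 and Mup5, known from lacrimal, nasal and salivary glands, were listed at 0 in both libraries. Mup22, named for its counts after its values were seen, had 274080 counts in the knockout library and 203110 in the WT library (log2 ratio 0.52). Of the 27 rows for Mup pseudogenes, 13 were at 0 in both libraries and Mup-ps19 held nearly all counts of the rest. All 49 rows together took 2.03% of the counts in the knockout library and 1.73% in the WT library, a log2 ratio of 0.28. Adding 9 other genes with at least 97% coding identity to the 7 near-identical members gave 832881 counts in the knockout library and 794896 in the WT library, a log2 ratio of 0.15 over 16 genes.

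**Figure D5:**
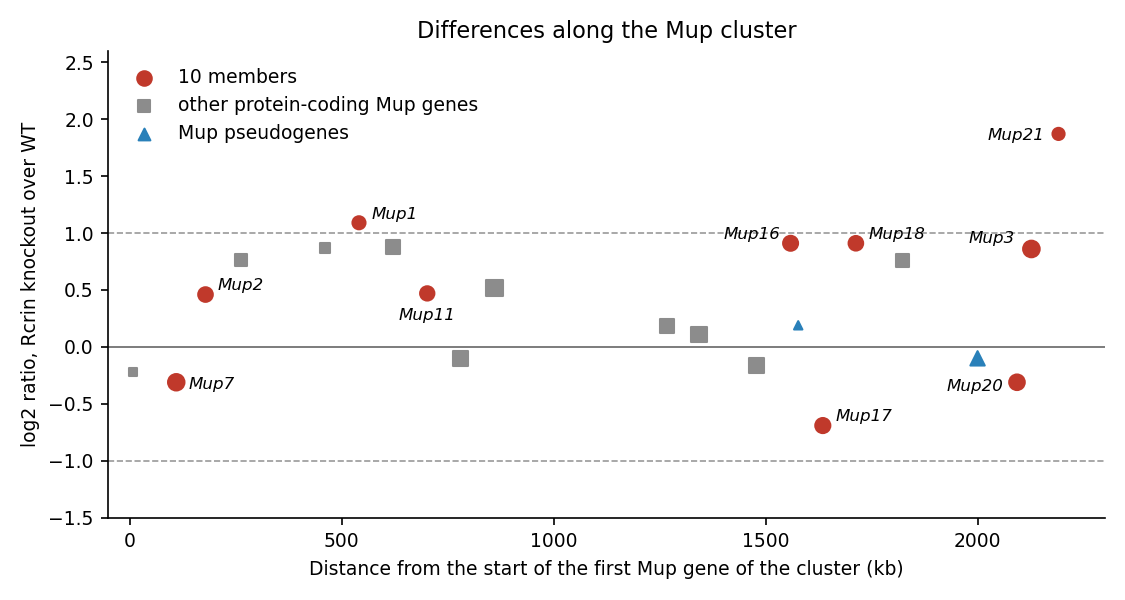
Log2 ratio, Rcrin knockout over WT, of the 22 Mup rows with a mean of at least 50 counts, against the distance in kilobases from the start of the first Mup gene of the cluster on chromosome 4 (circles, the 10 members; squares, other protein-coding Mup genes; triangles, pseudogenes; larger symbols have more counts on a log scale). Genes above and below 0 are interspersed along the cluster, and the members at its far end span from Mup20 at -0.31 to Mup21 at 1.87.

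Promoter sequence was compared because Mup7 and Mup17 were lower in the knockout library and Mup2, Mup11 and Mup18 were higher. RefSeq (GRCm38.p6) windows of 300 bases that span the annotated start were at hand for 7 members, all on the minus strand. The motif TATATAA was in 6 of the 7 windows, against 3.24% of all 32851 windows, counting both strands. The window without it was that of Mup7 (chr4:60070426-60070725), so no stretch of Mup7 is printed. The annotated start of Mup7 lies farther from the coding stretch shown above than those of Mup2, Mup11, Mup17 and Mup18 do. Its window therefore covers a different part of the gene, and sequence outside it was not searched. The lack of TATATAA holds for this window only, not for the promoter of Mup7. CCAAT, searched in the same way, was in 4 of the 7 and in 37.4% of all windows. TTCNNNGAA, the pattern that STAT proteins are known to bind, was in 0 of the 7 and in 8.3% of all, which says only that these letters are not in these short windows. The 77 bases that end with TATATAA (in capitals) are printed to show the A-rich run before it.
Mup2: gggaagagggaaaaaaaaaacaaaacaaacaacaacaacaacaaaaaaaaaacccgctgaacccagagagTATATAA
Mup11: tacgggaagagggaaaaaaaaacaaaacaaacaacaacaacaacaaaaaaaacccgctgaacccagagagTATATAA
Mup17: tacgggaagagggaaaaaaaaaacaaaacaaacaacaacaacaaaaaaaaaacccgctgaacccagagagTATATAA
Mup18: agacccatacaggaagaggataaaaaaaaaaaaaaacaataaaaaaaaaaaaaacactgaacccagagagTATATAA
Mup3: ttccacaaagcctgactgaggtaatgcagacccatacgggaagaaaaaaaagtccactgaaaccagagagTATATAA
Mup21: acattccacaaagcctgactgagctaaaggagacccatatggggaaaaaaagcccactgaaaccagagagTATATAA

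These stretches lie at chr4:60139877-60139953 (Mup2), chr4:60662391-60662467 (Mup11), chr4:61595851-61595927 (Mup17), chr4:61674116-61674192 (Mup18), chr4:62087322-62087398 (Mup3) and chr4:62150843-62150919 (Mup21). The stretches do not all sit at the same distance from the annotated RefSeq start. Counted from that start, the first base of TATATAA was at -27 in Mup2, -25 in Mup17 and -28 in Mup18. It was at -2 in Mup11, -11 in Mup3 and -8 in Mup21. Of the 70 bases before TATATAA, A made up 41 to 46 in the 4 near-identical members and 29 in Mup3 and in Mup21. Mup17, lower in the knockout library, and Mup2, higher there, both had 10 as the longest run of A, and Mup18 had 15. Mup3 and Mup21, both higher, had runs of 8 and 7.

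Genes of the growth hormone signal, which acts on the Mup genes, differed in both directions. Over all genes compared, 8.45% were past 2-fold and higher and 8.61% past it and lower, with a median log2 ratio of -0.01, and the lists that follow are read beside these values. The list held 12 genes, of which 11 were compared. Among these, 2 were past 2-fold and higher in the knockout library and 3 past it and lower, with a median log2 ratio of -0.12. The growth hormone receptor gene Ghr had 22696 counts in the knockout library and 10629 in the WT library (log2 ratio 1.18), and Igf1, a hormone gene that growth hormone induces, had 21525 in the knockout library and 9708 in the WT library (1.23). The feedback inhibitors Cish, with 995 counts in the knockout library and 6390 in the WT library (-2.60), Socs1 (-1.73) and Socs3 (-1.31) were lower. Another feedback inhibitor, Socs2, had 949 counts in the knockout library and 1084 in the WT library, a log2 ratio of -0.11 whose interval reached from -0.23 to 0.02. Stat5b, the main STAT5 gene of the liver, stood at -0.12. Socs2 and Stat5b were chosen after their values were seen.

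Hormone receptors and hepatocyte transcription factors had 14 of 17 genes compared, 5 of them higher and 2 lower past 2-fold, with a median of 0.31. Higher in the knockout library were Foxa1 (178 counts in the knockout and 69 in the WT library, log2 ratio 1.45), Cebpb (1.24), Zbtb20 (1.19) and Hnf4a, a master regulator of hepatocyte genes (16348 counts in the knockout and 7694 in the WT library, 1.17). The retinoid X receptor gene Rxra (5931 counts in the knockout and 13896 in the WT library, -1.14) was lower. Less the GC trend, Rxra (-0.89) came back within 2-fold. Cebpa, which hepatocytes are known to use, was listed at 0 in both libraries, so a 0 in these tables need not mean absence.

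Other genes with a sex bias in mouse liver also went both ways. Of 15 male-biased genes other than Mup, 4 were higher and 1 lower past 2-fold, with a median of 0.15. The steroid dehydrogenase gene Hsd3b5 had 6967 counts in the knockout library and 1949 in the WT library (log2 ratio 1.92). Ugt2b38 (1.41), the transporter Slco1a1 (1.31) and Cyp4a12a (1.02) followed, and complement C6 had 2399 counts in the knockout library and 10259 in the WT library (-2.01). Serpina1e and Gstp1, those with most counts, stood at -0.37 and 0.24. Hsd3b5 (1.84) and C6 (-2.21) were the only genes of this list past 2-fold after the GC trend was subtracted.

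Of 17 female-biased genes 8 were compared, 5 higher and 2 lower past 2-fold, with a median of 1.29. Among those higher were Cyp2b9, with 1249 counts in the knockout library and 308 in the WT library (log2 ratio 2.10), Atp6v0d2 (2.09) and Abcd2 (1.56), and Cyp17a1 had 130 counts in the knockout library and 813 in the WT library (-2.55). Cyp2a4, with most counts of the list, stood at 1.03, and Cyp3a44 at -1.02. Reads of the Cyp2a, Cyp2b, Cyp3a and Cyp4a genes are uncertain between close paralogs. Sharing of reads was not examined for any gene of the sex-biased lists, Serpina1e, Ugt2b38 and Hsd3b5 included.

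Other lipocalins were more often lower in the knockout library. Of 12 genes 8 were compared, 0 higher and 3 lower past 2-fold, with a median of -0.40. The GC-subtracted median was -0.33, and that of the Mup members 0.27. Lcn2, which binds iron carriers of bacteria, had 1100 counts in the knockout library and 34258 in the WT library (log2 ratio -4.87). The acute phase orosomucoids Orm2 (-2.28) and Orm3 (-1.04) were also lower, with reads uncertain between paralogs. Ambp, with most counts, stood at -0.33 and the retinol carrier Rbp4 at 0.32.

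Other abundant plasma proteins of hepatocytes mostly differed by less than 2-fold. Of 23 genes compared, 1 was higher and 2 lower past 2-fold, with a median of 0.15. Apoa2 had 1096775 counts in the knockout library and 412681 in the WT library and was 2.82-fold higher. Haptoglobin, Hp (133267 counts in the knockout and 356210 in the WT library, -1.33), and the fibrinogen chain Fga (-1.24) were lower. Albumin, Alb, with 5599153 counts in the knockout library and 3350104 in the WT library, stood at 0.83 and Serpina3k at 0.41.

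The log2 ratios of all 5 hepatocyte markers were above 0, with a median of 0.73 and a range from 0.01 to 0.83. Less the GC trend they remained above 0, from 0.24 for Apoa1 to 0.67 for Alb with a median of 0.54. The GC-subtracted median of the Mup members was 0.27, and their sum stood at -0.14. The 5 markers do not stand for all hepatocyte genes. Of the 23 abundant plasma protein genes, 13 were above 0 before the subtraction, and their GC-subtracted median was 0.21. The Kupffer cell markers together had 872 CPM in the knockout library and 1164 in the WT library, and those of sinusoidal endothelium had 287 CPM in the knockout library and 289 in the WT library. Stellate cell markers had 77.9 CPM in the knockout library and 79.1 in the WT library, and cholangiocyte markers had 16.3 in the knockout library and 26.9 in the WT library. Lymphocyte markers had 10.9 CPM in the knockout library and 10.5 in the WT library. Past 2-fold were 1 of 6 Kupffer cell markers, higher, and 1 of 6 endothelial, 1 of 5 stellate and 1 of 5 cholangiocyte markers, lower. Over all genes compared, 8.45% were past it and higher and 8.61% past it and lower. Less the GC trend, the Kupffer cell marker (Vsig4, 0.80) and the endothelial one (Oit3, -0.97) came back within 2-fold. None of the markers of these cell types was at 0 in either library, and their part in the Mup values was not tested.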

How the data were processed

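The authors deposited 1 table of unnormalized read counts for each library, with Ensembl gene identifiers, per the file headers. Per the labels' protocols, total RNA was extracted with Trizol and libraries were made with a SMARTER mRNA-Seq kit. The submitters' processing notes name the build GRCm38 (mm10). The aligner, the counting tool, its annotation, strand use and the handling of multiply mapped reads are not given in the sources used here.

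Symbols, positions, exons, lengths and GC content (median over transcripts) came from GENCODE M21, in which 55240 of 55421 genes had an entry. Counts were scaled with TMM factors (edgeR 4.0.16, R 4.3.3), 0.982 for the knockout and 1.02 for the WT library. Before taking log2, 0.5 reads, in proportion to depth, were added. Comparison was limited to genes whose mean was 50 counts or more, and past 2-fold means a log2 ratio of 1 or more either way. Intervals are exact conditional (Clopper-Pearson) 95% intervals and cover counting error only, since PCR reads without molecular identifiers are not independent molecules. The GC trend was a lowess fit (statsmodels 0.14.6, span 0.3). With 1 library per genotype, edgeR and DESeq2 served for scaling only. Principal transcripts were taken by CCDS and APPRIS tags, then length, and coding identity is from global alignment. The steps were tested on simulated data.

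The members and lists were chosen with earlier results of these data known. All 10 members are named, the highest and lowest of the other Mup genes, and from each list up to 4 genes past 2-fold in each direction and those with most counts. Some genes that enter the lists' counts and medians are not reported here by name. Alternatives were DESeq2 1.42.0 size factors, total counts, TMM without Mup rows, the GC trend, 5 reads added, other filters and other limits.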

Additional observations from a re-analysis of the deposited data

How the results depend on the processing

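The log2 ratio of the sum of the 10 members was 0.25 with DESeq2 size factors, 0.21 with total counts, 0.28 over all Mup rows, -0.08 without Mup3, the member with most counts, and -0.14 with the GC trend subtracted. The sum of the 7 near-identical members was -0.05 with DESeq2 size factors, -0.10 with total counts, -0.42 with the GC trend subtracted and 0.15 with other near-identical Mup genes added, and that of Mup3, Mup20 and Mup21 was 0.59, 0.54 and 0.17 with DESeq2 size factors, total counts and the GC trend subtracted. The median of the members was 0.66, 0.62 and 0.27 under the same settings. At a limit of 1.5-fold 6 members were past it, 5 higher and 1 lower, and at 4-fold 0. Over all genes, 2058 were past 2-fold, against 4556 at 1.5-fold, 641 at 4-fold, 6922 with no filter and 917 with a mean of at least 500 counts. With the GC trend subtracted, 4 hormone receptors and transcription factors in place of 7 and 2 male-biased genes in place of 5 were past 2-fold. Signs of all 10 members were kept under each scaling, with 5 reads added and with the GC trend subtracted. Alternatives for the lists and the sums of 7 and 3 members were chosen after seeing the data. No paired analysis was possible because each genotype had 1 library. Depth did not limit the members, whose mean counts were at least 2251, but the lack of a second library per genotype leaves every difference without a replicate check.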

Other observations

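Genes beside the Mup cluster, within 500 kb of its ends, were looked up as neighbours, and those named first were chosen after their values were seen. On the side of Mup4, the steroid dehydrogenase-like gene Hsdl2 (3791 counts in the knockout library and 3777 in the WT library) had a log2 ratio of 0.09 and Snx30 one of 0.06, but Inip was lower, with 20 counts in the knockout library and 139 in the WT library (-2.68). On the side of Mup21, the copper transporter gene Slc31a1 had 9378 counts in the knockout library and 8899 in the WT library (0.16), and Alad, an enzyme of heme synthesis, had 9752 in the knockout library and 8696 in the WT library (0.25). Rgs3, on the same side, was lower, with 1244 counts in the knockout library and 2692 in the WT library (-1.03). Slc31a2, nearer to the cluster, stood at 1.76 with 543 counts in the knockout library and 170 in the WT library. Inside the cluster, the noncoding gene Gm13775, which overlaps the pseudogene Mup-ps16, had 370 counts in the knockout library and 72 in the WT library (log2 ratio 2.44, interval 2.08 to 2.83). The widest difference nearby was that of Hdhd3, a gene with 2 exons, at 5264 counts in the knockout library and 142 in the WT library (5.29). The remaining neighbours that could be compared were within 2-fold. They were Ptbp3 (log2 ratio -0.22), E130308A19Rik (-0.17), Prpf4 (-0.08), Fkbp15 (0.17), Pole3 (0.24) and Cdc26 (0.66). Over all genes compared, 17.1% were past 2-fold in either direction.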
